A study of Mus musculus with 36 samples.

Results

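The 34 sarcomere and Z-disc genes described here were taken from a list of contractile and cytoskeletal genes of the heart muscle cell, matched by symbol. All 34 of the 34 listed genes were present in each of the 5 expression tables, out of 14846 genes found in any table and 13045 found in all 5. They comprise 7 thick filament genes, 9 thin filament genes, 4 genes of titin and the M-band and 14 genes of the Z-disc, desmin filaments and intercalated disc.

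The series measured polyadenylated RNA by bulk sequencing in mouse hearts that carried mutations of the Notch ligand genes *Jag1* or *Dll4* or of the ligand gene *Efnb2*, with 36 libraries in 5 experiments. At E12.5, whole hearts of *Jag1flox;Nfatc1-Cre* embryos (4 libraries) were set against WT (4 libraries), and whole hearts of *Dll4flox;Nfatc1-Cre* embryos (2 libraries) against WT (4 libraries), each library being a pool of 4 embryos. At E15.5, ventricles of *Dll4flox;Cdh5-CreERT2* embryos given tamoxifen at E12.5 (3 libraries) and of *Dll4GOF;Tie2-Cre* embryos (3 libraries) were each set against their own WT (4 libraries), in pools of 3 embryos. At E16.5, ventricles of single *Efnb2flox;Nfatc1-Cre* embryos (4 libraries) were set against WT (4 libraries). The floxed alleles were homozygous in the mutants. Nfatc1-Cre acts in the endocardium and its descendants, Cdh5-CreERT2 in endothelium after tamoxifen, and Tie2-Cre in endothelium and blood cells, so no driver was directed at the heart muscle cells in which the sarcomere genes are transcribed. The Dll4GOF allele, which adds a *Dll4* copy behind a loxP-flanked stop at Rosa26, came from a single embryonic stem cell clone. The control genotype beyond "WT" is not stated in the labels. The methods state that other *Dll4flox;Nfatc1-Cre* samples were discarded partly on their *Dll4* level, so that pair of libraries was selected in part on the targeted gene. Below, the groups are called *Jag1* mutant hearts, *Dll4* mutant hearts, *Dll4* mutant ventricles, Dll4GOF ventricles and *Efnb2* mutant ventricles.

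The sarcomere is the contractile unit of striated muscle. Myosin thick filaments, held at the M-band, slide along actin thin filaments, anchored at the Z-disc, and titin spans from Z-disc to M-band. Troponin and tropomyosin on the thin filament make the interaction of actin and myosin depend on calcium. During development the heart exchanges one protein of a family for another, for instance slow skeletal troponin I for cardiac troponin I, and atria and ventricles use different myosin light chains. Bulk libraries cannot tell fewer cells of a type apart from less RNA per cell.

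Libraries held 7827496 to 28464430 reads assigned to genes. Values are normalized counts, that is, reads scaled to the size of the library. A gene was called where its Benjamini-Hochberg adjusted p from limma, over all genes of the table, was under 0.05. In *Jag1* mutant hearts *Jag1* fell (20.9 to 27.4 in mutant libraries, against 39.1 to 45.7 in WT libraries, log2 fold change −0.82, adjusted p = 0.00653), and in *Dll4* mutant hearts *Dll4* fell (1.29 to 1.53 in mutant libraries, against 13.2 to 17.8 in WT libraries, log2 fold change −3.03, adjusted p = 0.000164). By the limma test used here, the targeted gene was not called in the other experiments, although the libraries were separate in the direction of the label. The paper, whose limma pipeline started from expected counts, reported *Dll4* as downregulated in *Dll4* mutant ventricles. *Dll4* stood at 8.11 to 20.7 in mutant libraries, against 23.2 to 28.6 in WT libraries, at E15.5 with *Dll4* loss (adjusted p = 0.0507), where mutant replicate 3 was near the WT range, and at 38.5 to 42.7 in mutant libraries, against 31.7 to 35.2 in WT libraries, with *Dll4* gain (adjusted p = 0.354). *Efnb2* stood at 44.4 to 48.4 in mutant libraries, against 55.1 to 80.6 in WT libraries (adjusted p = 0.297). Mitochondrial transcripts took 2.51 to 3.30% of reads in *Jag1* mutant hearts, against 2.90 to 3.41% in WT, and 4.22 to 4.32% in *Dll4* mutant hearts, against 4.62 to 5.27% in WT. They took 5.60 to 6.55% in *Dll4* mutant ventricles, against 6.56 to 7.41% in WT. Both *Dll4* loss experiments were separate and lower in mutants, and the ranges overlapped in the other 3 experiments. In Dll4GOF ventricles the overlap was slight (4.60 to 5.039%, against 5.038 to 5.65% in WT). *Efnb2* mutant ventricles had 7.12 to 7.87%, against 7.68 to 8.23% in WT.

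The promoters of *Acta1* and *Xirp2*, called in the comparisons below, are shown because each has a single RefSeq start and a window free of the Ensembl gene body, and can be read for motifs long known in muscle promoters. *Smpx*, also called and with a single RefSeq start, is not printed because its window runs past the Ensembl start of the gene. Of the 34 genes, 31 matched a RefSeq promoter (43 promoters, GRCm38.p6, 250 bases upstream of the start). *Myom2*, *Tcap* and *Xirp1* had no match. Capitals mark the CArG box (CC, then A or T at 6 positions, then GG; the serum response factor motif), the MCAT core GGAATG or CATTCC (the TEAD motif) and TATAAA. The promoters read 5′ to 3′ on the strand of the gene.
Acta1 promoter chr8:123894776-123895025 (minus strand): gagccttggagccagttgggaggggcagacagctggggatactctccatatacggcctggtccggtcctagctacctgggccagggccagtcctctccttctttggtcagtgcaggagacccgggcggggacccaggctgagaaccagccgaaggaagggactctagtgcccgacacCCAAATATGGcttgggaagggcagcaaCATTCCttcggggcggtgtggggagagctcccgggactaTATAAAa
Xirp2 promoter chr2:67445752-67446001 (plus strand): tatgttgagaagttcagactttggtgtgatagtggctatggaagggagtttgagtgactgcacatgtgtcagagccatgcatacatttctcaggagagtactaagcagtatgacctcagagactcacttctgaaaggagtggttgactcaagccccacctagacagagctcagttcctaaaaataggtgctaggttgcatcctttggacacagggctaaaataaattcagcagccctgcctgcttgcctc
*Acta1*, the skeletal alpha-actin gene, held a CArG box, an MCAT core and a TATAAA close to its start. The *Xirp2* window held none of the motifs marked here. Apart from those counted below, other muscle motifs were not searched for.

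The CArG box was found in 8 of the 43 promoters of these genes (18.6%), against 1.47% of all 32851 promoters of the same length. The windows are shown because 7 genes share the box with flanks that differ.
Acta1 CArG window chr8:123894829-123894858 (minus strand): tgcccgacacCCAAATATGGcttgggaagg
Actc1 CArG window chr2:114052903-114052932 (minus strand): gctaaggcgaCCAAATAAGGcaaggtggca
Myl3 CArG window chr9:110763583-110763612 (plus strand): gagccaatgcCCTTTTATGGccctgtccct
Myl7 CArG window chr11:5898824-5898853 (minus strand): ccattcctctCCTTATTTGGgcctctgggt
Myom1 CArG window chr17:71019448-71019477 (plus strand): gccttcctggCCATAAAAGGctggctgtgg
Ldb3 CArG window chr14:34588697-34588726 (minus strand): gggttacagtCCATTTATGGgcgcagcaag
Nebl CArG window chr2:17462999-17463028 (minus strand): gctcccatctCCTAAATTGGctggaaatgc
The box lay 63 bases before the RefSeq start in *Acta1*, 37 in *Actc1*, 75 in *Myl3*, 51 in *Myl7*, 89 in *Myom1* and 152 in *Nebl*. The windows of *Actc1*, *Myl3*, *Myom1* and *Nebl* lie inside the Ensembl span of the gene, downstream of its Ensembl start. In *Ldb3* a pair of starts shared 1 box. Both strands were searched for every motif. The MCAT core was in 11 of the 43 promoters (25.6%), against 12.6% of all promoters. The GATA core AGATAA was in 8 (18.6%, against 9.99% of all), the E-box CANNTG in 33 (76.7%, against 66.2%) and TATAAA in 4 (9.3%, against 12.4%). A match is a run of letters and not evidence that a factor was bound.

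In *Jag1* mutant hearts, most of the 34 sarcomere genes had small negative log2 fold changes, and the ventricular light chain gene *Myl2* fell the furthest of the called genes. Of the 34 genes, 3 fell (8.82%, against 0.637% of all genes), 1 rose (2.94%, against 1.12% of all genes) and 30 were not called. Log2 fold changes were negative for 27 genes (79.4%, against 49.1% of all genes), with a median of −0.17 over the 34 genes, against 0.0041 over all genes, and 15 genes passed an unadjusted p under 0.05 (44.1%, against 23.7% of all genes). All 4 mutant libraries lay below all 4 WT libraries for 9 genes (26.5%, against 7.04% of all genes) and above them for 2 (5.88%, against 6.77%). By role, 6 of 7 thick filament genes, 8 of 9 thin filament genes, 2 of 4 titin and M-band genes and 11 of 14 Z-disc and filament genes had negative log2 fold changes. Without WT replicate 4 the median was −0.097, and without WT replicate 2, 3 or 4 or mutant replicate 2, 1 of the 34 genes fell, while calls over the whole table dropped to 0.122% to 0.372% of genes, against 1.75% with all libraries.

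**Figure D1:**
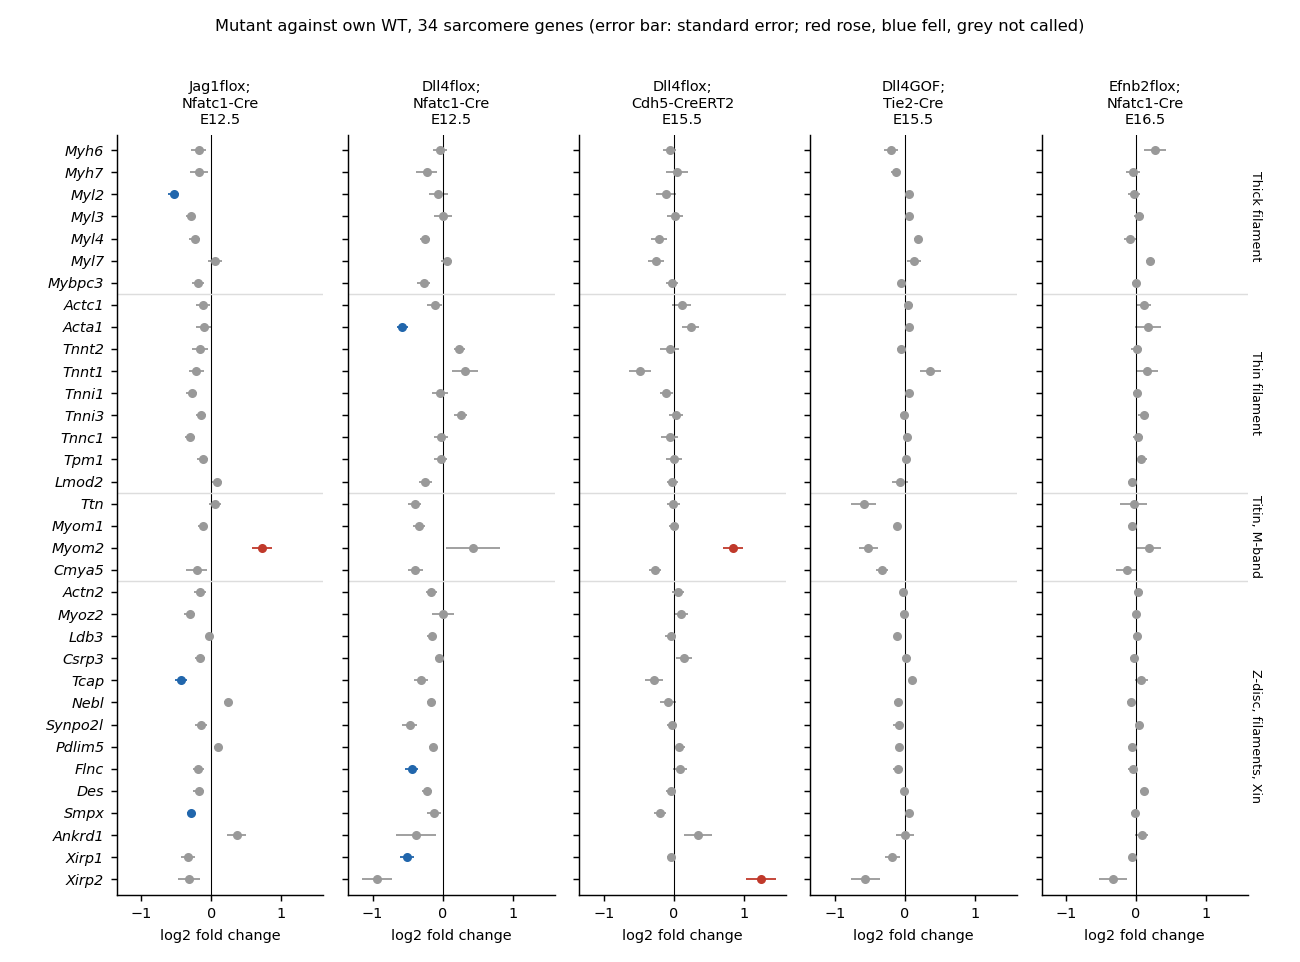
Log2 fold change of each of the 34 sarcomere genes (x axis, mutant over own WT) in the 5 experiments, genes in rows grouped by role, with bars for the standard error. Red points rose, blue points fell and grey points were not called. The 3 fallen genes and the 1 risen gene of Jag1 mutant hearts sit at −0.54, −0.44, −0.29 and 0.72.

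*Myl2* (ENSMUSG00000013936, chr5:122100951-122113472, plus strand, GRCm38), the regulatory myosin light chain of the ventricle, had 3022, 2679, 2913 and 2857 in the 4 *Jag1* mutant libraries, against 4180.1, 4064, 3887 and 4513 in the 4 WT libraries. Every *Jag1* mutant library was below every WT library. *Myl2* averaged 2868 ± 143.4 in mutants (SD, n = 4) and 4161 ± 264.0 in WT (SD, n = 4), and it fell (log2 fold change −0.54, SE 0.0791, limma adjusted p = 0.0182). The fall held with each library left out in turn (adjusted p 0.0117 to 0.0497).

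*Tcap* (ENSMUSG00000007877, chr11:98383811-98384953, plus strand), or telethonin, caps titin at the Z-disc. Its value was 55.9, 59.8, 62.3 and 52.9 in the 4 *Jag1* mutant libraries, against 72.1, 74.0, 74.5 and 94.2 in the 4 WT libraries. The groups did not overlap, and WT replicate 4 stood far above the other WT libraries. *Tcap* fell (log2 fold change −0.44, SE 0.0863, limma adjusted p = 0.0389). Without WT replicate 4 the call was lost (adjusted p = 0.0655), as it was without any one of 5 other libraries, with adjusted p over all 8 omissions of 0.0320 to 0.105.

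*Smpx* (ENSMUSG00000041476, chrX:157698910-157752591, plus strand), which encodes a small protein of the muscle cell cytoskeleton, had 205.8, 188.7, 201.3 and 199.9 in the 4 *Jag1* mutant libraries, against 233.8, 238.9, 240.6 and 262.2 in the 4 WT libraries. Both groups were tight and separate. *Smpx* fell by a small margin (log2 fold change −0.29, SE 0.0525, limma adjusted p = 0.0309). The call was lost without WT replicate 2, 3 or 4 or mutant replicate 2 (adjusted p 0.0611, 0.105, 0.0655 and 0.0792).

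*Myom2* (ENSMUSG00000031461, chr8:15057653-15133541, plus strand), or M-protein, is a cross-linker of the M-band. It was scarce at this stage, with 11.5, 9.09, 12.3 and 13.0 in the 4 *Jag1* mutant libraries, against 6.81, 5.50, 6.14 and 8.77 in the 4 WT libraries. The highest WT library lay just under the lowest mutant library. *Myom2* rose (log2 fold change 0.72, SE 0.146, limma adjusted p = 0.0390), on 118 to 245 reads per library. The call was lost without WT replicate 1, 2 or 3 or mutant replicate 1 (adjusted p 0.0663, 0.0775, 0.127 and 0.0741).

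Just outside the threshold, *Myl3*, the essential light chain of the ventricle, stood at 1696 to 1815 in mutant libraries, against 1999.7 to 2335 in WT libraries (log2 fold change −0.30, SE 0.0684, limma adjusted p = 0.0516). *Tnnc1*, cardiac troponin C, stood at 891.9 to 968.8 in mutant libraries, against 986.7 to 1215 in WT libraries (log2 fold change −0.30, SE 0.0750, limma adjusted p = 0.0595). Both sets of libraries were separate and lower in mutants without passing the limma test. By edgeR, *Myl3* fell (log2 fold change −0.30, adjusted p = 0.0392).

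Of a list of 56 other sarcomere genes, 49 were in the table. Of these, 1 rose (2.04%, against 1.12% of all genes) and 1 fell (2.04%, against 0.637%). Log2 fold changes of the 49 were negative for 27 (55.1%, against 49.1% of all genes) and positive for 22, with a median of −0.018. All mutant libraries lay below all WT libraries for 3 (6.12%, against 7.04% of all genes) and above them for 1 (2.04%, against 6.77%). The list summed to 6765 to 6968 in mutants, against 7003 to 7778 in WT, separate and lower. *Tnnt3*, fast skeletal troponin T, averaged 12.8 ± 2.38 in mutants (SD, n = 4) and 4.05 ± 1.53 in WT (SD, n = 4) and rose (log2 fold change 1.59, SE 0.218, limma adjusted p = 0.0128). *Unc45b*, a chaperone of muscle myosin, averaged 257.1 ± 8.53 in mutants (SD, n = 4) and 330.3 ± 21.5 in WT (SD, n = 4) and fell (log2 fold change −0.36, SE 0.0562, limma adjusted p = 0.0219).

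**Figure D2:**
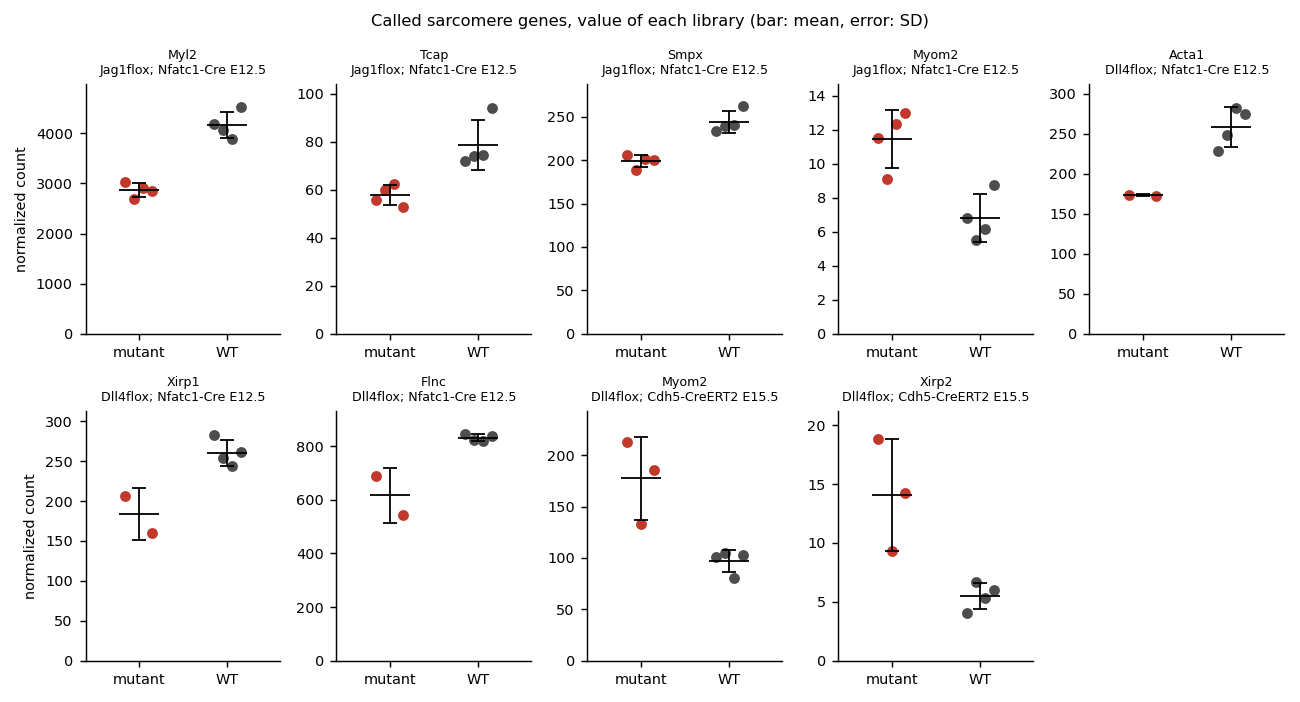
Normalized count (y axis, from 0) of each called sarcomere gene in every library, mutant left of WT, with bars for the mean and error bars for the SD. The 4 Jag1 mutant libraries lie between 2679 and 3022 for Myl2, all below the WT libraries, whose lowest value is 3887.

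Other values moved with these results. Summed over 8 atrial marker genes other than *Myl7* and *Myl4*, levels were 3116 to 3933 in mutants, against 2425 to 3375 in WT, and over 6 ventricular marker genes other than *Myl2* and *Myl3* they were 1262 to 1431 in mutants, against 1362 to 1562 in WT. Both ranges overlapped. Of the atrial list *Dkk3* rose (log2 fold change 0.55, SE 0.0557, limma adjusted p = 0.00547), *Bmp10* rose (log2 fold change 0.91, SE 0.146, limma adjusted p = 0.0219) and *Nr2f1* fell (log2 fold change −0.41, SE 0.0907, limma adjusted p = 0.0462), and of the ventricular list *Irx4* fell (log2 fold change −0.34, SE 0.0705, limma adjusted p = 0.0402). Erythroid markers summed to 4787 to 23355 in mutants, against 7263 to 9991 in WT, with *Hemgn* among the risen genes (log2 fold change 2.37). Epicardial and mesenchymal markers summed to 4359 to 5481 in mutants, against 3865 to 4376 in WT, with *Wt1* risen (0.41 log2). Smooth muscle markers summed to 2802 to 3011 in mutants, against 2848 to 3667 in WT, with *Acta2* fallen (−0.38 log2). Of the 7 smooth muscle list genes, 4 had positive and 3 negative log2 fold changes. Library medians by exonic length, here and below, leave out scarce genes. Mutant libraries were set against the WT mean. Each WT library was set against the mean of the other WT libraries, which widens the WT range. On the log2 scale, 1375 genes under 2 kb had medians of −0.13 to −0.037 in mutants and −0.090 to 0.11 in WT. The 1245 genes over 10 kb had 0.041 to 0.14 in mutants and −0.13 to 0.090 in WT. The part of these shifts in the sarcomere results was not tested.

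In *Dll4* mutant hearts at E12.5, the skeletal actin gene *Acta1* and the actin-binding genes *Xirp1* and *Flnc* fell. These are 3 of the 34 genes (8.82%, against 0.86% of all genes), and 0 rose by limma or edgeR and 1 by DESeq2 (1.31% of all genes rose by limma). At an unadjusted p under 0.05 in limma, 18 genes passed (52.9%, against 21.4% of all genes), 16 with negative and 2 with positive log2 fold changes. Log2 fold changes were negative for 27 genes (79.4%, against 49.1%), with a median of −0.16, against 0.0039 over all genes. Mutant and WT libraries did not overlap for 18 genes (52.9%, against 31.5% of all genes). Both mutant libraries lay below all 4 WT libraries for 16 of them (47.1%, against 16% of all genes) and above for 2, *Tnnt2* and *Tnni3*. Of the Z-disc and filament group, which holds *Xirp1* and *Flnc*, 13 of 14 genes had negative log2 fold changes.

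*Acta1* (ENSMUSG00000031972, chr8:123891769-123894751, minus strand), whose promoter is printed above, had 173.9 and 172.2 in the 2 *Dll4* mutant libraries, against 228.7, 249.1, 281.9 and 275.1 in the 4 WT libraries. Both mutant libraries were alike and below the WT libraries. *Acta1* fell (log2 fold change −0.57, SE 0.0839, limma adjusted p = 0.0213), while the cardiac actin *Actc1* had a log2 fold change of −0.11 that did not pass the test.

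*Xirp1* (ENSMUSG00000079243, chr9:120013755-120023598, minus strand), an actin-binding Xin repeat gene of the intercalated disc, had 206.2 and 160.5 in the 2 *Dll4* mutant libraries, against 282.5, 253.3, 244.2 and 261.0 in the 4 WT libraries. *Flnc* (ENSMUSG00000068699, chr6:29433256-29461883, plus strand), or filamin C, an actin cross-linker at the Z-disc, had 688.8 and 543.9 in the 2 *Dll4* mutant libraries, against 844.2, 824.0, 819.8 and 839.3 in the 4 WT libraries. For both genes mutant replicate 2 was the lower of the pair. *Xirp1* fell (log2 fold change −0.51, SE 0.0990, limma adjusted p = 0.0423), and so did *Flnc* (log2 fold change −0.44, SE 0.0883, limma adjusted p = 0.0449).

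Without mutant replicate 2 the calls were lost for *Acta1*, *Xirp1* and *Flnc* (adjusted p 0.13, 0.202 and 0.187), and the lone remaining mutant was then assumed to vary like the WT libraries. Leaving out any one of the 4 WT libraries ended the *Xirp1* call (adjusted p 0.0535 to 0.124) and the *Flnc* call (0.0673 to 0.135), and leaving out WT replicate 2 or 4 ended the *Acta1* call (0.0506 and 0.0799). With mutant replicate 2 as the lone mutant, 6 of the 34 genes fell, and with mutant replicate 1 alone 0 fell and the median was −0.079. Without WT replicate 2 or 4, 0 genes fell, and without WT replicate 1 or 3, 1 fell. Calls over the whole table moved too, to 3.94% of genes with mutant replicate 2 alone, 0.427% with mutant replicate 1 alone and 0.253% to 1.3% without a WT library, against 2.17% with all libraries. By edgeR, *Acta1* fell (adjusted p = 0.0257), *Ttn* fell (adjusted p = 0.0481), and the *Xirp1* and *Flnc* calls were lost (adjusted p 0.0510 and 0.0504).

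Of the genes next in order, *Xirp2*, the second Xin repeat gene, stood at 0.965 to 1.12 in mutant libraries, against 1.95 to 3.16 in WT libraries on 20 to 69 reads (log2 fold change −0.93, SE 0.212, limma adjusted p = 0.0620). *Synpo2l*, an actin-bundling protein of the Z-disc, stood at 267.5 to 366.1 in mutant libraries, against 413.1 to 454.4 in WT libraries (log2 fold change −0.47, SE 0.109, limma adjusted p = 0.0643). *Ttn*, titin, stood at 2330.2 to 2628 in mutant libraries, against 2947 to 3484 in WT libraries (log2 fold change −0.40, SE 0.0974, limma adjusted p = 0.0718). All 3 were separate and lower in mutants without passing the test.

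Of the other sarcomere list, 50 of 56 genes were in the table and 3 were called. Of the 50, 1 rose (2%, against 1.31% of all genes) and 2 fell (4%, against 0.86%). Log2 fold changes of the 50 were negative for 30 (60%, against 49.1% of all genes) and positive for 20, with a median of −0.032. Both mutant libraries lay below all WT libraries for 12 (24%, against 16% of all genes). The list summed to 6937 to 6968 in mutants, against 7248 to 7557 in WT, separate and lower. *Myh7b*, a slow myosin heavy chain, rose (log2 fold change 0.83, SE 0.142, limma adjusted p = 0.0337), *Synm*, the intermediate filament protein synemin, fell (log2 fold change −0.62, SE 0.0988, limma adjusted p = 0.0257), and *Palld*, the actin-associated protein palladin, fell (log2 fold change −0.42, SE 0.0741, limma adjusted p = 0.0355). Smooth muscle markers summed to 2511 to 2532 in mutants, against 2631 to 2706 in WT, with *Cnn1* fallen (−0.48 log2), and endothelial markers to 1060.3 to 1133 in mutants, against 1151 to 1205 in WT, both separate and lower in mutants. The atrial sums (1843 to 2074 in mutants, against 1669 to 2106 in WT) and ventricular sums (1570.4 to 1736 in mutants, against 1475 to 2029 in WT) overlapped, and *Wt1* rose (0.57 log2). Genes over 10 kb had library medians of −0.065 to −0.043 in mutants and −0.029 to 0.038 in WT on the log2 scale. The part of these shifts in the sarcomere results was not tested.

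Log2 fold changes of *Jag1* mutant hearts and of *Dll4* mutant hearts, each against its own WT in its own table, were compared by a contrast of contrasts in limma. By limma 0 of the 34 genes differed at an adjusted p under 0.05 (0.0145% of 13795 genes), and 14 differed at an unadjusted p under 0.05, 8 with a positive difference (23.5%, against 8.97% of all genes) and 6 with a negative one (17.6%, against 7.52%). Without *Dll4* mutant replicate 1, 1 gene differed (0.341% of all genes). *Nebl*, or nebulette, had the smallest adjusted p (0.137, difference 0.40). The difference was −0.48 for *Myl2* (SE 0.148, adjusted p = 0.179) and 0.46 for *Acta1* (SE 0.160, adjusted p = 0.196), so the calls of these genes in a single genotype were not shown to differ between the genotypes.

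In *Dll4* mutant ventricles at E15.5, *Myom2* and *Xirp2* rose while the list as a whole was centred near WT. These 2 of the 34 genes rose (5.88%, against 0.943% of all genes) and none fell by limma (0.209% of all genes fell), and no gene of the 34 fell by edgeR or DESeq2. At an unadjusted p under 0.05, 6 sarcomere genes passed (17.6%, against 14.2% of all genes), 4 of them negative. The median log2 fold change was −0.023, against −0.00082 over all genes, and 19 of 34 genes were negative (55.9%, against 50.2%). The 3 mutant libraries lay above the 4 WT libraries for 2 genes (5.88%, against 6.97%) and below them for 0 (5.98% of all genes).

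*Myom2*, risen in *Jag1* mutant hearts too, had 212.8, 133.5 and 186.1 in the 3 *Dll4* mutant libraries, against 100.7, 104.5, 80.9 and 102.5 in the 4 WT libraries. All mutant libraries were above all WT libraries, and mutant replicate 2 was the highest. *Myom2* averaged 177.5 ± 40.4 in mutants (SD, n = 3) and 97.2 ± 10.9 in WT (SD, n = 4) and rose (log2 fold change 0.85, SE 0.139, limma adjusted p = 0.0179). *Xirp2* (ENSMUSG00000027022, chr2:67446002-67526614, plus strand) had 18.8, 9.28 and 14.2 in the 3 *Dll4* mutant libraries, against 4.03, 6.66, 5.33 and 6.003 in the 4 WT libraries, on 59 to 193 reads per library. It rose (log2 fold change 1.25, SE 0.220, limma adjusted p = 0.0240), again with mutant replicate 2 the highest. Without mutant replicate 2 the call was lost for *Myom2* (adjusted p = 0.124) and for *Xirp2* (adjusted p = 0.158), and it was also lost without WT replicate 3 (adjusted p 0.0705 and 0.0844) and, for *Xirp2*, without WT replicate 1 (adjusted p = 0.058). Without mutant replicate 3, 2 of the 34 genes fell, with 4.13% of all genes called, against 1.15% with all libraries.

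The next genes by p did not pass the test. *Cmya5*, or myospryn, a muscle protein that binds desmin and titin, stood at 84.0 to 99.1 in mutant libraries, against 96.3 to 120.0 in WT libraries (log2 fold change −0.27, SE 0.0865, limma adjusted p = 0.171), and *Tnnt1*, slow skeletal troponin T, at 128.9 to 213.3 in mutant libraries, against 185.5 to 275.3 in WT libraries (log2 fold change −0.48, SE 0.161, limma adjusted p = 0.195). *Smpx* had a log2 fold change of −0.19 (adjusted p = 0.333) and *Myl7*, the atrial regulatory light chain, of −0.26 (adjusted p = 0.351). The 49 measured genes of the other sarcomere list gave no call. Atrial markers summed to 1597 to 1853 in mutants, against 1203 to 1533 in WT, separate and higher in mutants. Most of that sum was the atrial list gene *Nppa* (1409 to 1665 in mutants, against 1001 to 1324 in WT). Of all 10 atrial list genes, *Myl7* and *Myl4* included, 7 had negative log2 fold changes. Macrophage markers summed to 63.4 to 81.4 in mutants, against 48.3 to 58.3 in WT, also separate and higher. Ventricular markers summed to 2570.4 to 2986 in mutants, against 3007 to 3275 in WT, separate and lower. Skeletal muscle markers, of which 6 of 11 were in the table, summed to 1333 to 1747 in mutants, against 1164 to 1676 in WT and overlapped. Nearly all of that sum was *Ckm* (1296 to 1703 in mutants, against 1109 to 1630 in WT). *Myod1*, *Myog*, *Pax7*, *Myf5* and *Myh3* were not in the table, so the sum says little about skeletal muscle cells. *Erg* (0.50 log2), *Emcn* (0.41 log2), *Slc4a1* (0.75 log2) and *Wt1* (0.51 log2) rose. The endothelial list had 7 of 9 positive log2 fold changes (sum 1139 to 1407 in mutants, against 1054 to 1140 in WT). The erythroid list, which holds *Slc4a1*, had 4 of 7 positive (733 to 2552, against 1455 to 2015). The epicardial and mesenchymal list, which holds *Wt1*, had 7 of 9 negative (5340 to 5807, against 5521 to 6039). All these sums overlapped WT. The share of mitochondrial reads, given above, was lower in every mutant library than in every WT library. The part of these shifts in the *Myom2* and *Xirp2* results was not tested.

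In Dll4GOF ventricles, 0 of the 34 genes were called by limma, edgeR or DESeq2 (0% of all genes were called by limma). At an unadjusted p under 0.05, 8 sarcomere genes passed (23.5%, against 9.32% of all genes), 6 of them negative. Log2 fold changes were negative for 20 genes (58.8%, against 49.7%), with a median of −0.023. The mutant libraries lay below all WT libraries for 4 genes, *Cmya5*, *Ttn*, *Xirp2* and *Myh7* (11.8%, against 4.39% of all genes), and above them for 0 (4.56% of all genes). *Myom2* had 78.0, 55.3 and 59.1 in the 3 Dll4GOF libraries, against 85.3, 114.4, 94.8 and 75.6 in the 4 WT libraries, with mutant replicate 2 inside the WT range (log2 fold change −0.52, SE 0.137, limma adjusted p = 0.376). *Xirp2* had 4.05, 4.87 and 2.27 in the 3 Dll4GOF libraries, against 5.06, 6.61, 5.11 and 5.51 in the 4 WT libraries (log2 fold change −0.57, SE 0.206, limma adjusted p = 0.456). The *Xirp2* groups were separate, and neither gene passed the test.

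The titin gene *Ttn* had 1759, 2036 and 1004 in the 3 Dll4GOF libraries, against 2256, 2484, 2169.5 and 2337 in the 4 WT libraries (log2 fold change −0.59, SE 0.182, limma adjusted p = 0.401). Mutant replicate 4 stood apart from the other libraries, and without it the log2 fold change was −0.29 for *Ttn*, −0.29 for *Xirp2*, −0.20 for *Cmya5* and −0.47 for *Myom2*. Its log2 ratio to the WT mean was −1.20 for *Ttn* and its median over genes longer than 10 kb was −0.11. The same median was −0.092 in mutant replicate 2, also below every WT library, and −0.018 in mutant replicate 3, against −0.068 to 0.054 in WT libraries. Of the other genes nearest the threshold, *Cmya5* had a log2 fold change of −0.33 (adjusted p = 0.384), *Tnnt1* of 0.36 (adjusted p = 0.490) and *Myl4*, the atrial and embryonic essential light chain, of 0.19 (adjusted p = 0.384). Atrial markers summed to 1394 to 1560.5 in mutants, against 1143 to 1283 in WT, separate and higher in Dll4GOF ventricles. Most of that sum was *Nppa* (1133 to 1303 in mutants, against 891 to 1030 in WT). Of all 10 atrial list genes, 7 had positive and 3 negative log2 fold changes. The other sarcomere list gave no call.

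**Figure D3:**
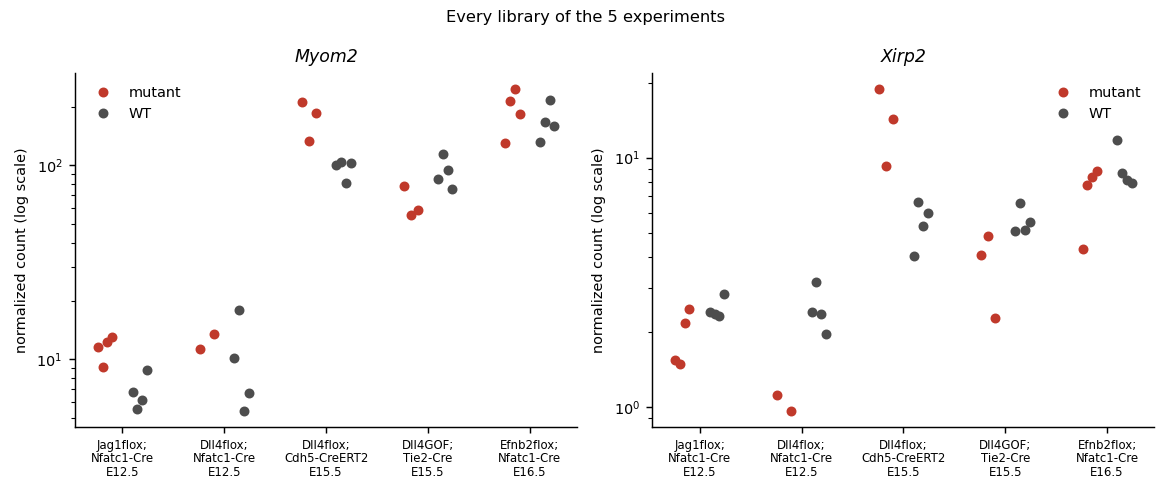
Normalized count (y axis, log scale) of Myom2 and Xirp2 in each of the 36 libraries of the 5 experiments, mutant left of WT. In Dll4 mutant ventricles all 3 mutant libraries lie above all 4 WT libraries for both genes, at 133.5 to 212.8 for Myom2 and 9.28 to 18.8 for Xirp2.

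The log2 fold changes in *Dll4* mutant ventricles and in Dll4GOF ventricles, each against its own WT, differed for 2 of the 34 sarcomere genes (5.88%, against 0.324% of 13562 genes), and 8 differed at an unadjusted p under 0.05, 3 with a positive difference (8.82%, against 6.81% of all genes) and 5 with a negative one (14.7%, against 5.07%). The difference was 1.37 for *Myom2* (SE 0.221, limma adjusted p = 0.0225). For *Xirp2* it was 1.82 (SE 0.330, adjusted p = 0.0332). Both genes were higher in mutants under loss of *Dll4*, and had negative log2 fold changes that did not pass the test under gain of *Dll4*. Of 14 omissions of a library, the *Myom2* difference was lost in 4 (adjusted p over all omissions 0.00103 to 0.109) and the *Xirp2* difference in 10 (0.00225 to 0.120). Without mutant replicate 2 of the *Dll4* mutant ventricles both were lost (adjusted p 0.109 and 0.12), as they were without mutant replicate 4 (0.0624 and 0.0742), WT replicate 2 (0.0569 and 0.068) or WT replicate 3 (0.0621 and 0.0677) of the Dll4GOF experiment. The *Xirp2* difference was also lost without WT replicate 1 or 3 or mutant replicate 4 of the loss experiment or WT replicate 1 or 4 or mutant replicate 2 of the gain experiment. Without mutant replicate 3 of the *Dll4* mutant ventricles, 4 genes differed (3.38% of all genes).

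In *Efnb2* mutant ventricles, 0 of the 34 genes were called by limma, edgeR or DESeq2 (0.0296% of all genes rose, 0% fell). At an unadjusted p under 0.05, 1 sarcomere gene passed (2.94%, against 6.34% of all genes). That gene was *Myl7*, which had 230.4, 221.8, 256.5 and 279.7 in the 4 *Efnb2* mutant libraries, against 220.0, 211.5, 211.7 and 211.3 in the 4 WT libraries. It was the one gene of the 34 with mutant libraries all above WT (2.94%, against 2.01% of all genes), and none were all below (1.63% of all genes). The log2 fold change of *Myl7* did not pass the test (log2 fold change 0.20, SE 0.0654, limma adjusted p = 0.684). The next genes had log2 fold changes of 0.11 for *Des*, the desmin gene, 0.27 for *Myh6*, the alpha myosin heavy chain, −0.077 for *Nebl*, −0.33 for *Xirp2* and 0.11 for *Tnni3*, cardiac troponin I (adjusted p 0.824, 0.831, 0.831, 0.835 and 0.861). The median over the 34 genes was 0.0086. Without mutant replicate 1 the log2 fold change of *Xirp2* was −0.11. That library stood apart with *Ttn* at 1648, a log2 ratio of −0.78 to the WT mean. The sums of the 8 cell type marker lists overlapped between mutants and WT. The 95% interval of the log2 fold change was −0.26 to 0.18 for the abundant *Myh7* and −0.77 to 0.12 for the scarce *Xirp2*.

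Shares within 8 gene pairs were computed from the reads of each library, so that the scaling of the table cancels. They are shares of reads, uncorrected for transcript length. With 40 comparisons, 6 reached the smallest exact two-sided permutation p that 4 against 4 or 3 against 4 libraries allow (0.0286), none passed after Benjamini-Hochberg adjustment (lowest adjusted p = 0.19), and the pair of mutant libraries in *Dll4* mutant hearts could not go below 0.0667. Mutant and WT libraries did not overlap in 10 of 40. In the *Jag1* experiment 2 were above WT and 1 below, and with *Dll4* loss at E12.5 1 was above and 2 below. With *Dll4* loss at E15.5 2 were above, and 1 was below in each of the Dll4GOF and *Efnb2* experiments. Separation comes easily with the 2 mutant libraries at E12.5, where 31.5% of all single genes were separate. Pairs that hold a gene called above use the same reads and are not independent of that call.

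In the *Jag1* experiment the share of the ventricular light chain *Myl2* in the *Myl2* and *Myl7* reads was 63.7% ± 1.90 in mutants (SD, n = 4) and 72.5% ± 2.41 in WT (SD, n = 4) (exact permutation p = 0.0286), a difference of −8.77 percentage points. All 4 mutant shares were below all WT shares. The same pair gave 71.3% ± 3.22 in mutants (SD, n = 2) and 72.9% ± 3.83 in WT (SD, n = 4) at E12.5 with *Dll4* loss (exact permutation p = 0.800). In the *Efnb2* experiment it was 95.0% ± 0.326 in mutants (SD, n = 4) and 95.7% ± 0.392 in WT (SD, n = 4) (exact permutation p = 0.0286).

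The share of cardiac troponin I (*Tnni3*) in the *Tnni3* and *Tnni1* reads was 27.9% ± 0.319 in mutants (SD, n = 4) and 26.0% ± 0.756 in WT (SD, n = 4) in the *Jag1* experiment (exact permutation p = 0.0286). In the *Dll4* experiment at E12.5 the share was 30.9% ± 3.37 in mutants (SD, n = 2) and 26.6% ± 1.19 in WT (SD, n = 4) (exact permutation p = 0.0667). With *Dll4* loss at E15.5 it was 34.2% ± 1.61 in mutants (SD, n = 3) and 32.1% ± 0.605 in WT (SD, n = 4) (exact permutation p = 0.0571). Mutant libraries were separate and above WT in both sets of E12.5 hearts and overlapped WT at E15.5.

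The share of *Myom2* in the *Myom2* and *Myom1* reads was 1.40% ± 0.273 in mutants (SD, n = 4) and 0.759% ± 0.129 in WT (SD, n = 4) in the *Jag1* experiment (exact permutation p = 0.0286). With *Dll4* loss at E15.5 it was 15.47% ± 2.78 in mutants (SD, n = 3) and 9.16% ± 0.672 in WT (SD, n = 4) (exact permutation p = 0.0286), and the share of *Xirp2* in the Xin repeat pair was 4.62% ± 1.43 in mutants (SD, n = 3) and 1.80% ± 0.306 in WT (SD, n = 4) (exact permutation p = 0.0286). Mutant shares were above every WT share in each. The *Xirp2* share was 0.555% ± 0.0394 in mutants (SD, n = 2) and 0.935% ± 0.211 in WT (SD, n = 4) with *Dll4* loss at E12.5 (exact permutation p = 0.133) and 1.20% ± 0.212 in mutants (SD, n = 3) and 1.64% ± 0.197 in WT (SD, n = 4) with *Dll4* gain (exact permutation p = 0.0571). Mutant shares were below every WT share in both, and overlapped WT in the *Jag1* and *Efnb2* experiments. With *Dll4* gain at E15.5 the *Myom2* share was 6.27% ± 1.17 in mutants (SD, n = 3) and 8.22% ± 1.64 in WT (SD, n = 4) (exact permutation p = 0.171).

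*Myh7*, the beta myosin heavy chain, had 63.7% ± 1.10 in mutants (SD, n = 4) and 63.5% ± 1.71 in WT (SD, n = 4) of the *Myh7* and *Myh6* reads in the *Jag1* experiment (exact permutation p = 0.914). With *Dll4* loss at E15.5 it had 87.6% ± 0.644 in mutants (SD, n = 3) and 86.9% ± 0.786 in WT (SD, n = 4) (exact permutation p = 0.200). *Acta1* had 2.23% ± 0.0847 in mutants (SD, n = 2) and 3.06% ± 0.363 in WT (SD, n = 4) of the reads of the actin pair with *Dll4* loss at E12.5 (exact permutation p = 0.0667), with both mutants below every WT library. For *Tnnt1* with *Tnnt2* and *Myl4* with *Myl3* no comparison had an exact permutation p under 0.114.

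**Figure D4:**
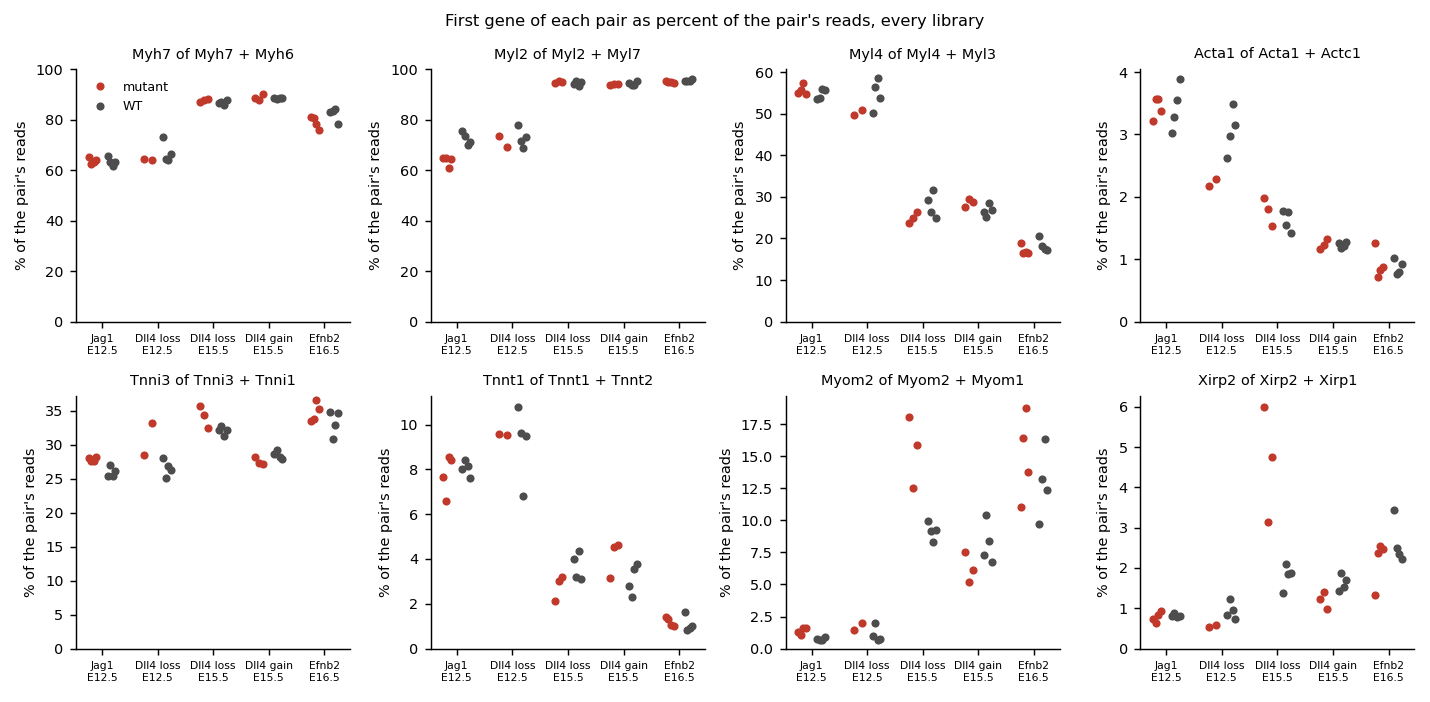
Reads of 1 gene of each of 8 pairs as a percentage of the reads of both genes (y axis, % of the pair's reads) in each library, mutant left of WT, for the 5 experiments. In Jag1 mutant hearts the Myl2 share lies between 60.9% and 64.9%, below the WT range that starts at 70.1%.

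The paralogs *Myh6* and *Myh7*, and the actins *Acta1* and *Actc1*, share long near-identical stretches, so the split of reads between them carries some uncertainty from the estimation of counts. *Myh7* overlaps 2 genes on the opposite strand that are in the tables, *Mhrt* and Gm29015, and *Actc1* overlaps A530058N18Rik, and the library kit does not mark strand.

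Levels of the 34 genes in WT libraries are given side by side across the 5 experiments, with no test, because each table was normalized on its own and because stage cannot be told apart from tissue (whole hearts at E12.5, ventricles later) and from the RNA kit. The WT libraries at E15.5 and E16.5 all lay above the E12.5 libraries for 15 genes and all below them for 3, *Myl4*, *Myl7* and *Acta1*. For the other 16 they overlapped. Comparing only ventricles, E16.5 libraries lay above all E15.5 libraries for 7 genes, below them for 5 and overlapped for 22. The shares over all genes were not computed, so these counts do not set the 34 genes apart from other genes. The range of WT levels per stage and of log2 fold changes over the 5 experiments follows for each gene.

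The thick filament is built of myosin heavy chains with paired light chains. *Myh7*, the beta heavy chain, ranged over 9221 to 15673 at E12.5, 16419 to 20417 at E15.5 and 17404 to 18876 at E16.5 in WT, with log2 fold changes of −0.23 to 0.043. WT levels of *Myh6*, the alpha heavy chain, were 4645 to 9034 at E12.5, 2263 to 3025 at E15.5 and 3478 to 5212 at E16.5, and the 5 log2 fold changes spanned −0.20 to 0.27. Per kilobase of exon, the WT mean of the beta chain was above that of the alpha chain in all 5 experiments. Here and below, exon length is that of all annotated exons of a gene, merged. It is not the length of the transcript that was present. For *Myl2*, the ventricular regulatory light chain, WT libraries held 2918 to 4513 at E12.5, 4678 to 5631 at E15.5 and 4501 to 5474 at E16.5, and log2 fold changes lay between −0.54 and 0.060. *Myl7*, its atrial counterpart, had WT levels of 1138 to 1842 at E12.5, 238.1 to 345.1 at E15.5 and 211.3 to 220.0 at E16.5, and its log2 fold changes ran over −0.26 to 0.20. Not scaled by length, *Myl2* was above *Myl7* in all WT libraries at each stage. Per kilobase of merged exon, the WT mean of *Myl7* was above that of *Myl2* in both E12.5 experiments and below it in the 3 later ones. The E12.5 order thus rests on the annotated lengths (590 bases for *Myl7*, 1950 for *Myl2*) and does not show which transcript was more abundant. *Myl3*, the ventricular essential light chain, ranged over 1632 to 2335 at E12.5, 2569 to 3256 at E15.5 and 2740.3 to 3286 at E16.5 in WT, with log2 fold changes of −0.30 to 0.053. WT levels of *Myl4*, its atrial and embryonic counterpart, were 2221 to 2952 at E12.5, 917.8 to 1296 at E15.5 and 580.3 to 755.6 at E16.5, and the 5 log2 fold changes spanned −0.25 to 0.19. For *Mybpc3*, cardiac myosin-binding protein C, WT libraries held 1973 to 2919.5 at E12.5, 2597 to 3157 at E15.5 and 2994 to 3272 at E16.5, and log2 fold changes lay between −0.27 and −0.0046. The fold changes of *Mybpc3* were negative in all 5 experiments.

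The thin filament joins actin with tropomyosin and the troponin complex. *Actc1*, cardiac alpha-actin, had WT levels of 7794 to 9228 at E12.5, 10029 to 10894 at E15.5 and 9029 to 11310.2 at E16.5, and its log2 fold changes ran over −0.12 to 0.12. *Acta1*, skeletal alpha-actin, ranged over 228.7 to 373.1 at E12.5, 122.8 to 188.8 at E15.5 and 70.9 to 114.8 at E16.5 in WT, with log2 fold changes of −0.57 to 0.24. Per kilobase of exon, *Actc1* was the most abundant of the 34 in each experiment (5253 per kb in the WT libraries of the *Jag1* experiment). WT levels of *Tnnt2*, cardiac troponin T, were 2070.3 to 2948 at E12.5, 5028 to 6729.7 at E15.5 and 5632 to 6394 at E16.5, and the 5 log2 fold changes spanned −0.16 to 0.24. For *Tnnt1*, slow skeletal troponin T, WT libraries held 184.1 to 355.6 at E12.5, 134.6 to 275.3 at E15.5 and 49.8 to 92.3 at E16.5, and log2 fold changes lay between −0.48 and 0.36. *Tnni1*, slow skeletal troponin I, had WT levels of 1201 to 1811 at E12.5, 1859 to 2247 at E15.5 and 1907 to 2161 at E16.5, and its log2 fold changes ran over −0.29 to 0.060. At E16.5 all WT libraries were above the E12.5 range for *Tnnt2* and below it for *Tnnt1*. *Tnni3*, cardiac troponin I, ranged over 441.5 to 642.0 at E12.5, 798.2 to 1054 at E15.5 and 893.0 to 1148 at E16.5 in WT, with log2 fold changes of −0.15 to 0.26. WT levels of *Tnnc1*, troponin C, were 905.5 to 1215 at E12.5, 1367 to 1757 at E15.5 and 1298 to 1567 at E16.5, and the 5 log2 fold changes spanned −0.30 to 0.030. *Tnni3* and *Tnnc1* were higher in all later WT libraries than at E12.5. For *Tpm1*, alpha-tropomyosin, WT libraries held 2434 to 2963 at E12.5, 2756 to 3984 at E15.5 and 2888 to 3418 at E16.5, and log2 fold changes lay between −0.13 and 0.078. *Lmod2*, a leiomodin that acts at the pointed end of the thin filament, had WT levels of 73.3 to 100.5 at E12.5, 86.5 to 133.5 at E15.5 and 116.8 to 144.8 at E16.5, and its log2 fold changes ran over −0.25 to 0.074.

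Titin and the M-band proteins hold the thick filaments in register. *Ttn*, titin, ranged over 2279 to 3484 at E12.5, 2169.5 to 3309 at E15.5 and 2629 to 3212 at E16.5 in WT, with log2 fold changes of −0.59 to 0.056. WT levels of *Myom1*, the M-band protein myomesin, were 843.4 to 982.9 at E12.5, 895.4 to 1081 at E15.5 and 1098 to 1229.8 at E16.5, and the 5 log2 fold changes spanned −0.34 to 0.0035. For *Myom2*, M-protein, WT libraries held 5.41 to 17.8 at E12.5, 75.6 to 114.4 at E15.5 and 132.4 to 218.7 at E16.5, and log2 fold changes lay between −0.52 and 0.85. The ratio of the WT mean at E16.5 to that at E12.5 was the highest of the 34 genes for *Myom2* (20.2), followed by *Xirp2* (3.69), and the lowest for *Myl7* (0.151). *Cmya5*, myospryn, had WT levels of 36.2 to 69.1 at E12.5, 96.3 to 131.9 at E15.5 and 109.9 to 161.9 at E16.5, and its log2 fold changes ran over −0.39 to −0.13. *Cmya5* had negative log2 fold changes in every experiment.

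The Z-disc anchors the thin filaments of neighbouring sarcomeres. *Actn2*, alpha-actinin, ranged over 1157 to 1765 at E12.5, 1953 to 2316 at E15.5 and 2106 to 2333 at E16.5 in WT, with log2 fold changes of −0.16 to 0.064. WT levels of *Myoz2*, calsarcin, were 79.1 to 131.4 at E12.5, 159.9 to 221.8 at E15.5 and 185.7 to 205.3 at E16.5, and the 5 log2 fold changes spanned −0.31 to 0.10. For *Ldb3*, a PDZ and LIM protein of the Z-disc, WT libraries held 488.7 to 617.0 at E12.5, 699.2 to 827.0 at E15.5 and 887.6 to 940.2 at E16.5, and log2 fold changes lay between −0.16 and 0.010. These 3 were higher in all later WT libraries than at E12.5. *Csrp3*, the muscle LIM protein, had WT levels of 521.2 to 670.7 at E12.5, 690.8 to 873.5 at E15.5 and 754.1 to 839.0 at E16.5, and its log2 fold changes ran over −0.16 to 0.15. *Tcap*, telethonin, ranged over 54.9 to 94.2 at E12.5, 62.1 to 73.8 at E15.5 and 52.9 to 57.3 at E16.5 in WT, with log2 fold changes of −0.44 to 0.11. WT levels of *Nebl*, nebulette, were 317.6 to 506.9 at E12.5, 378.2 to 514.0 at E15.5 and 600.9 to 615.7 at E16.5, and the 5 log2 fold changes spanned −0.16 to 0.24. *Nebl* stood above WT in *Jag1* mutant hearts and below it in *Dll4* mutant hearts, with no call in either. For *Synpo2l*, an actin-bundling protein, WT libraries held 391.1 to 500.7 at E12.5, 520.6 to 653.3 at E15.5 and 615.9 to 637.4 at E16.5, and log2 fold changes lay between −0.47 and 0.037. *Pdlim5*, a PDZ and LIM protein, had WT levels of 238.9 to 309.6 at E12.5, 338.8 to 391.5 at E15.5 and 419.0 to 443.5 at E16.5, and its log2 fold changes ran over −0.14 to 0.092. *Flnc*, filamin C, ranged over 819.8 to 1117 at E12.5, 586.9 to 840.8 at E15.5 and 705.0 to 733.8 at E16.5 in WT, with log2 fold changes of −0.44 to 0.10. All E16.5 WT libraries of *Flnc* lay below the E12.5 range, and the E15.5 range overlapped both.

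Desmin filaments and the intercalated disc link sarcomeres to each other and to neighbouring cells. WT levels of *Des*, desmin, the intermediate filament protein of muscle, were 709.5 to 990.3 at E12.5, 668.2 to 812.2 at E15.5 and 577.3 to 672.3 at E16.5, and the 5 log2 fold changes spanned −0.22 to 0.11. For *Smpx*, a small cytoskeletal protein, WT libraries held 233.8 to 302.7 at E12.5, 287.5 to 365.6 at E15.5 and 308.6 to 354.6 at E16.5, and log2 fold changes lay between −0.29 and 0.054. *Ankrd1*, a stretch-responsive ankyrin repeat protein that binds titin, had WT levels of 498.7 to 819.4 at E12.5, 619.6 to 928.9 at E15.5 and 657.4 to 790.8 at E16.5, and its log2 fold changes ran over −0.38 to 0.36. *Ankrd1* varied within groups. Its value was 1709, 1027 and 757.4 in the 3 *Dll4* mutant libraries, against 857.9, 890.2, 928.9 and 779.2 in the 4 WT libraries at E15.5, with mutant replicate 2 far above the rest. *Xirp1*, the first Xin repeat gene, ranged over 244.2 to 350.6 at E12.5, 280.5 to 347.0 at E15.5 and 330.8 to 346.6 at E16.5 in WT, with log2 fold changes of −0.51 to −0.041. WT levels of *Xirp2*, the second Xin repeat gene, were 1.95 to 3.16 at E12.5, 4.03 to 6.66 at E15.5 and 7.95 to 11.8 at E16.5, and the 5 log2 fold changes spanned −0.93 to 1.25. *Xirp1* had negative log2 fold changes in all 5 experiments, and *Xirp2* was the least abundant of the 34 genes per kilobase of exon in each.

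The 34 genes together took 5.44 to 5.53% of reads in *Jag1* mutant hearts, against 5.94 to 6.78% in WT, and the ranges did not overlap. In *Dll4* mutant hearts they took 4.95 to 5.20%, against 5.12 to 5.76% in WT. At E15.5 the shares were 6.79 to 7.57% in *Dll4* mutant ventricles, against 6.84 to 7.57% in WT, and 6.26 to 6.86% in Dll4GOF ventricles, against 6.64 to 6.85% in WT. In *Efnb2* mutant ventricles they took 6.83 to 7.64%, against 6.78 to 7.57% in WT. The ranges overlapped in all but the *Jag1* experiment.

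**Figure D5:**
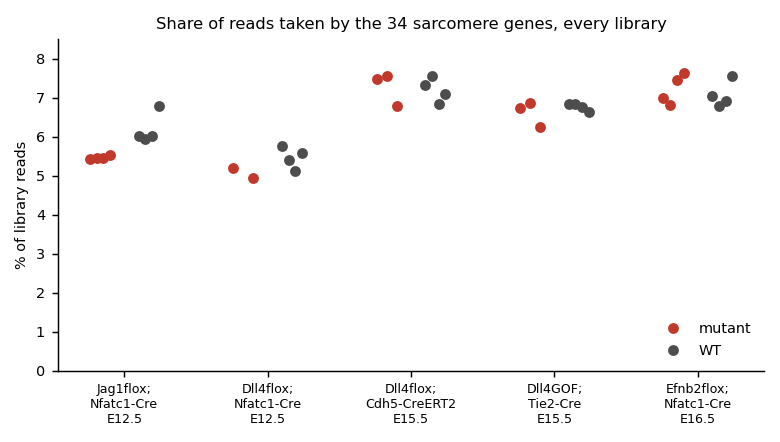
Share of library reads (y axis, %) taken by the 34 sarcomere genes together, for each library of the 5 experiments, mutant left of WT. The 4 Jag1 mutant shares lie between 5.44% and 5.53%, below the WT range of 5.94% to 6.78%.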

How the data were processed

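The authors deposited a table of normalized counts per experiment, here treated as a signal unit. CASAVA 1.8.2, FastQC, Cutadapt 1.6 (reads under 30 bp dropped) and RSEM 1.2.3 on GRCm38 with Ensembl 76 are named in the submitters' processing notes and methods. The methods name another RSEM release. Values are expected counts scaled to a library size that limma adjusted, and whole reads were recovered from them for 100% of values in 36 of 36 columns (tolerance 0.01). The main test was limma 3.58.1 with a mean-variance trend (R 4.3.3) on log2(value + 0.5), each mutant against its own WT, on genes with a value of 1 or more in a number of libraries equal to the size of the smaller group. The fold change scale understates changes of low genes. edgeR 4.0.16 (331, 317, 186, 0 and 4 genes called, in the order of the experiments) and DESeq2 1.42.0 on recovered reads were alternatives, and limma voom was added after seeing the data. Pair shares were tested by exact two-sided permutation. The scripts were tested on simulated data. The members and gene lists were chosen with earlier results of these data known. Genes were named where called, to 6 per experiment by smallest p, or in a pair, and by their WT level. Libraries are pools or single embryos, and p-values measure the spread between them. Gene symbols matched 14740 of 14846 IDs. Sequences are RefSeq, GRCm38.p6.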

Additional observations from a re-analysis of the deposited data

Results flagged for a closer look

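Each group of 4 libraries was examined for a library far from the rest, by the gap to its nearest neighbour divided by the whole range of the group. Of 192 groups, 13 had a gap over the 95% critical value for 4 values, and chance gives about 1 in 20 groups. Groups of 2 or 3 libraries were not examined.

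Among *Jag1* mutant hearts, mutant replicate 2 was low for *Myh6* (6376, against 6696 to 6717 in the other mutants, gap 0.937 of the range), mutant replicate 3 was low for the *Myl2* share (60.9%, against 64.3% to 64.9%, gap 0.864) and mutant replicate 4 was high for the share of reads of the 34 genes (5.53%, against 5.44% to 5.45%, gap 0.892). In their WT hearts, replicate 4 was high for *Tcap* (94.2, against 72.1 to 74.5, gap 0.892) and for the share of reads of the 34 genes (6.78%, against 5.94% to 6.02%, gap 0.896), and replicate 1 was low for *Tnnc1* (986.7, against 1192 to 1215, gap 0.898).

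In the WT ventricles of the *Dll4* loss experiment at E15.5, replicate 3 was low for *Myom2* (80.9, against 100.7 to 104.5, gap 0.836). In *Efnb2* mutant ventricles, replicate 1 was high for the *Myl4* share (19.0%, against at most 16.6% in the other mutants, gap 0.941) and low for the *Xirp2* share (1.34%, against 2.38% to 2.53%, gap 0.872). In their WT ventricles, replicate 1 was high for *Myl7* (220.0, against 211.3 to 211.7, gap 0.949), and replicate 5 was high for *Myh6* (5212, against 3478 to 3579, gap 0.942), for *Myl2* (5474, against 4501 to 4631, gap 0.866) and for the *Myl2* share (96.3%, against 95.5% in the other 3, gap 0.918).

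The log2 fold changes of *Myom2* and *Xirp2* differed between *Dll4* mutant ventricles and Dll4GOF ventricles by the limma test of the difference, by 1.37 and 1.82.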

How the results depend on the processing

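Counts of called sarcomere genes depended on the method. In *Jag1* mutant hearts (1 rose, 3 fell), the genes that rose and fell were 0 and 1 without a mean-variance trend, 2 and 7 with robust variances, 0 and 5 with quantile normalization and 2 and 9 by DESeq2, 5 fell with only the upper 75% of genes by mean, and 0 fell with the replicate block. Over all genes of that table, the share called was 1.75%, against 0.343% without the trend, 3.16% with robust variances, 1.84% with quantile normalization, 8.25% by DESeq2, 3.52% with the upper 75% and 0.551% with the block. In *Dll4* mutant hearts (0 rose, 3 fell), 0 fell without the trend, 7 with robust variances, 5 with quantile normalization and 0 with the replicate block, and by DESeq2 1 rose and 11 fell, with 0.392%, 3.44%, 2.13%, 0.203% and 6.31% of all genes called under these, against 2.17%. In *Dll4* mutant ventricles 0 rose without the trend (0.036% of all genes called, against 1.15%). The count of genes that differed between *Dll4* mutant and Dll4GOF ventricles (2) was 0 without the trend and 1 with robust variances. It was 1 with the upper 75% of genes, a set that left out *Xirp2*, so that gene was not tested there. Between *Jag1* and *Dll4* mutant hearts the count (0) was 1 with quantile normalization. With single libraries left out, the counts were 0 to 1 (rose) and 1 to 4 (fell) in *Jag1* mutant hearts, 0 to 6 (fell) in *Dll4* mutant hearts, 0 to 3 (rose) and 0 to 2 (fell) in *Dll4* mutant ventricles, 0 to 4 differing between the *Dll4* experiments at E15.5 and 0 to 1 between the E12.5 experiments. The cause was not tested. Only a number links the samples, since the correlation of same-numbered deviations from the group means ran over −0.13 to 0.23 and a library correlated best with its own number in 5 of 15 pairs. With quantile normalization the sign of the log2 fold change turned for *Myh6* (0.13) and *Myl2* (0.085) in *Dll4* mutant hearts, *Myl2* (0.14), *Tnnt2* (0.15) and *Myom1* (−0.016) in *Dll4* mutant ventricles, *Myh7* (0.0099) and *Tnni3* (0.016) in Dll4GOF ventricles and *Myl3* (−0.047) and *Tnni1* (−0.019) in *Efnb2* mutant ventricles. With the replicate block it turned for *Myl3* (−0.041) and *Myom2* (−0.12) in *Dll4* mutant hearts, *Myom1* (−0.020) in *Dll4* mutant ventricles and *Tnni3* (0.0054) in Dll4GOF ventricles. None of these genes was called there. Leaving out single libraries turned the sign of small values. In *Jag1* mutant hearts, the log2 fold change ranged over −0.017 to 0.13 for *Myl7*. In *Jag1* mutant hearts, the difference of pair shares in percentage points ranged over −0.14 to 0.15 for *Acta1* of *Acta1*+*Actc1*, −0.45 to 0.94 for *Myh7* of *Myh7*+*Myh6*, −0.50 to 0.16 for *Tnnt1* of *Tnnt1*+*Tnnt2*, −0.085 to 0.012 for *Xirp2* of *Xirp2*+*Xirp1*. In *Dll4* mutant hearts, the log2 fold change ranged over −0.17 to 0.047 for *Myl2*, −0.065 to 0.090 for *Myl3*, −0.19 to 0.10 for *Tnni1*. In *Dll4* mutant hearts, the difference of pair shares in percentage points ranged over −3.84 to 0.72 for *Myl2* of *Myl2*+*Myl7*, −0.41 to 0.90 for *Tnnt1* of *Tnnt1*+*Tnnt2*. In *Dll4* mutant ventricles, the log2 fold change ranged over −0.017 to 0.088 for *Myh7*, −0.26 to 0.021 for *Myl2*, −0.067 to 0.087 for *Myl3*, −0.030 to 0.040 for *Myom1*, −0.066 to 0.14 for *Tnni3*, −0.17 to 0.048 for *Tnnt2*. In Dll4GOF ventricles, the log2 fold change ranged over −0.049 to 0.026 for *Tnni3*, −0.29 to 0.0060 for *Xirp1*. In Dll4GOF ventricles, the difference of pair shares in percentage points ranged over −0.034 to 0.041 for *Acta1* of *Acta1*+*Actc1*, −0.16 to 0.94 for *Myh7* of *Myh7*+*Myh6*, −0.43 to 0.086 for *Myl2* of *Myl2*+*Myl7*. In *Efnb2* mutant ventricles, the log2 fold change ranged over −0.010 to 0.30 for *Acta1*, −0.079 to 0.017 for *Myh7*, −0.073 to 0.033 for *Myl2*, −0.0098 to 0.050 for *Tnni1*, −0.026 to 0.043 for *Tnnt2*. In *Efnb2* mutant ventricles, the difference of pair shares in percentage points ranged over −0.068 to 0.12 for *Acta1* of *Acta1*+*Actc1*. Of 1226 values under other settings, 1164 kept direction and side of the threshold, as did 1026 of 1154 with a library left out. Depth limits the precision of the scarce genes *Xirp2* and *Myom2*.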
